A study of Mus musculus with 8 samples.

Results

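Secreted lipocalins and odorant-binding proteins of the mouse nose were followed across RNA-seq libraries of whole vomeronasal epithelium, the tissue around the pheromone-sensing neurons of the vomeronasal organ. The rule named 8 genes (Lcn3, Lcn4, Lcn11, Lcn14, Obp1a, Obp1b, Obp2a and Obp2b), which were looked up by gene symbol in the GENCODE M21 annotation of the mouse genome. Symbols were found for 7 of the 8, out of 48831 genes in the count files. RefSeq lists Lcn14 as another name of Obp2b, so the 8 names stand for 7 genes, and all 7 passed the filter on low counts.

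Lipocalins are small secreted proteins folded into a barrel with a pocket for hydrophobic molecules. In rodents they are made in large amounts by nasal glands, including those that empty into the lumen of the vomeronasal organ, where they lie in the fluid that odorants and pheromones cross to reach receptors. Obp1a, Obp1b, Obp2a and Obp2b encode odorant-binding proteins, and Lcn3 and Lcn4 encode proteins described in mice as vomeronasal secretory proteins.

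The 8 libraries came from C57BL/6J mice aged 8 weeks and formed 4 groups of 2. Male pools and female pools each held tissue of 2 mice per library and were labelled as not flushed. Flushed male and flushed female libraries each came from 1 mouse. The shared protocol describes heparin flushing of blood for all mice, which goes against the description of the pools, and the flushed preparation cannot be told apart from the use of single mice or from the sequencing lane and run date in the file names. Nothing in the labels gives a transgene or treatment, and p-values measure the spread between these libraries. Libraries held between 18763557 and 24965088 counts, with TMM scaling factors between 0.898 and 1.09. The olfactory marker protein gene Omp, found in mature vomeronasal neurons, lay between 340.9 and 484.4 CPM (counts scaled to library size, with TMM factors). The ion channel gene Trpc2, which defines those neurons, was listed at 0 in all 8 libraries, in counts that left out reads overlapping more than 1 gene, and the part of that rule in its absence was not tested. Cnga2, which defines neurons of the main olfactory epithelium, lay between 0.900 and 9.79 CPM. In bulk tissue such as this, fewer cells of a type and less RNA per cell cannot be told apart.

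Of the 7 genes, 5 lie on chromosome 2 and 2 on the X chromosome (GRCm38). Obp2a spans chr2:25700043-25703326, Obp2b chr2:25737009-25740097, Lcn3 chr2:25765569-25768099 and Lcn11 chr2:25777017-25780279, all on the plus strand and within a run of lipocalin genes. Lcn4 lies apart at chr2:26667674-26671282 on the minus strand. Obp1a spans chrX:78085505-78091374 on the minus strand and Obp1b chrX:78186777-78192292 on the plus strand.

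The stretches before the start sites are shown because the genes fell into sets with very different levels, described further on. Upstream bases were taken from RefSeq's promoter table (GRCm38.p6), reading 5′ to 3′ on the gene's strand. In the first pair the capitals mark the 3 positions at which the 217 bases before Obp2a (chr2:25699824-25700040) and Obp2b (chr2:25736790-25737006) differ.
Obp2a: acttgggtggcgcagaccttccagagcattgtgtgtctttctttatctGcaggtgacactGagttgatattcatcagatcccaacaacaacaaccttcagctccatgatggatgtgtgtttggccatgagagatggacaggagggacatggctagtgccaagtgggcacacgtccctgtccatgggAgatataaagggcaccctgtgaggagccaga
Obp2b: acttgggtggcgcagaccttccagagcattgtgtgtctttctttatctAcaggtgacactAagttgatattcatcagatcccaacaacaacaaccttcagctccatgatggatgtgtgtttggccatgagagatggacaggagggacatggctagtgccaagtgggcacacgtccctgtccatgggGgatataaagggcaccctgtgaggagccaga

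Lcn3 and Lcn4 also belonged to the abundant set. In their 250 bases (Lcn3 at chr2:25765283-25765532, plus strand; Lcn4 at chr2:26671283-26671532, minus strand), capitals mark the letters TATAAA, which Lcn4 lacks.
Lcn3: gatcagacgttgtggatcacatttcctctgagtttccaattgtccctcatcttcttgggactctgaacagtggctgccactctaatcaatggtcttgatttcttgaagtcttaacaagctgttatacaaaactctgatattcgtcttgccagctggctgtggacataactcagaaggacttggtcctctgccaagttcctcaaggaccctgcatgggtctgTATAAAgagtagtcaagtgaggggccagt
Lcn4: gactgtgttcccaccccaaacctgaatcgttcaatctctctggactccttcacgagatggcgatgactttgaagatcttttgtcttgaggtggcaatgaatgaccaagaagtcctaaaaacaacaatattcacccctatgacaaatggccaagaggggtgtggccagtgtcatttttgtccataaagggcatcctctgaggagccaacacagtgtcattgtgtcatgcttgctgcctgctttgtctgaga

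TATAAA, searched on both strands, was present upstream of 5 of the 7 genes (Obp2a, Obp2b, Lcn3, Obp1a and Obp1b), each time on the gene's own strand, and in 12.4% of 32851 promoter windows of the table. Obp2a, Obp2b and Lcn4 shared the run ataaagggca, which 15 of the 32851 windows held on the gene's strand. The half-site AGAACA of steroid receptors, on either strand, was upstream of Lcn11 and Obp1a and in 16.1% of windows, and the full palindrome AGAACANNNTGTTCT was upstream of none of the 7 and in 0.00913% of windows. No overlap with another motif was scored, and these matches describe letters only.

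Together the 7 genes took between 8.49% and 15.03% of all counts in a library. The summed share was 15.03% in male pool 1, 13.30% in male pool 2, 11.74% in flushed male 1 and 12.86% in flushed male 3. In females it was 9.87% in pool 1, 11.08% in pool 2, 10.19% in flushed female 2 and 8.49% in flushed female 3. Every male library stood above every female library, and exact 95% binomial intervals reached at most 0.0154 percentage points to either side, covering counting error only.

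The mean share was 13.2% ± 1.37 (SD, n = 4) in males and 9.91% ± 1.07 (SD, n = 4) in females, a difference of 3.33 percentage points and a ratio of 1.34. An exact two-sided permutation test that exchanged sexes within each preparation gave p = 0.0556. This is the smallest value its 36 arrangements allow, so this test cannot reach 0.05. Flushed single mice had a mean share of 10.8% ± 1.90 (SD, n = 4) and pools 12.3% ± 2.30 (SD, n = 4), with overlapping ranges. The exact permutation test within each sex gave p = 0.111, and the adjusted p over these 2 comparisons was 0.111 for each.

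**Figure D1:**
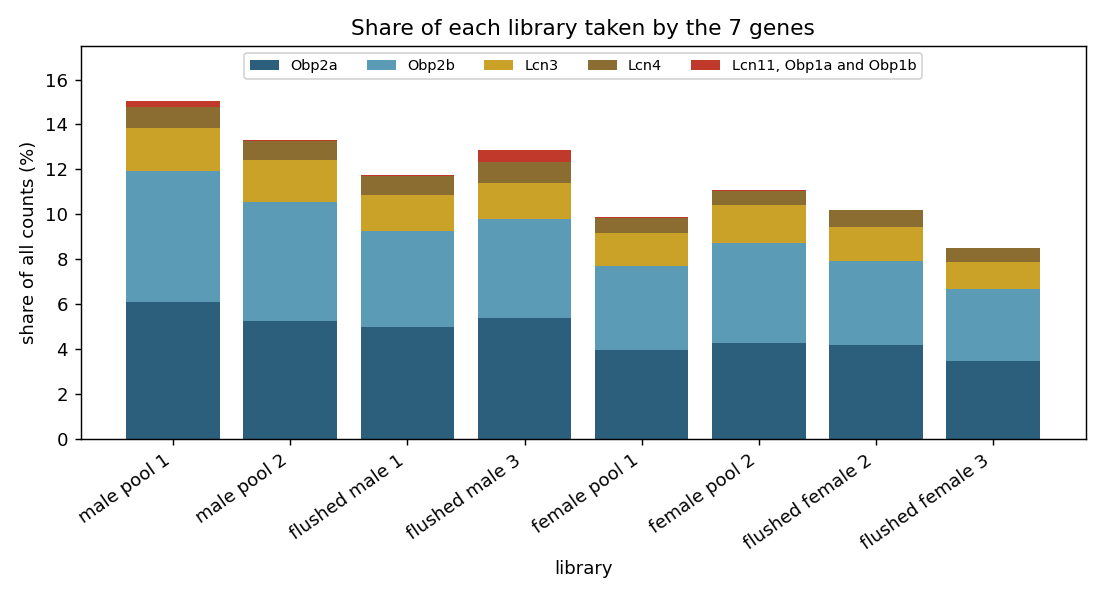
Share of all counts (%, vertical axis) in each of the 8 libraries (horizontal axis), stacked by gene. The 4 male bars reach from 11.74% to 15.03% and the 4 female bars from 8.49% to 11.08%, and the red piece for Lcn11, Obp1a and Obp1b is visible mainly in male pool 1 and flushed male 3.

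Almost all of this share came from 4 genes. Obp2a, Obp2b, Lcn3 and Lcn4 together held 8.48% to 14.77% of a library, and Lcn11, Obp1a and Obp1b together 0.0133% to 0.511%. The 3 others stood at 0.262% in male pool 1 and 0.511% in flushed male 3, against 0.0133% to 0.0456% in the other libraries.

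As reads per exon length and library size (RPKM), Obp2a had the highest median at 61746 over the 8 libraries, followed by Obp2b at 58773, Lcn3 at 23412 and Lcn4 at 10257. Lcn11 followed with a median RPKM of 265.9, then Obp1b at 78.8 and Obp1a at 68.7. Obp2a exceeded Obp2b in 6 of 8 libraries, by RPKM ratios between 0.947 and 1.21, so these neighbours in the order were not separated. Obp2b exceeded Lcn3, Lcn3 exceeded Lcn4, and Lcn4 exceeded Lcn11 in all 8 libraries, with median RPKM ratios of 2.48, 2.31 and 35.6. Lcn11 exceeded Obp1b in 6 of 8 libraries, and Obp1b exceeded Obp1a in 4 of 8.

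By mean CPM over all genes, Obp2a ranked 2, Obp2b 3, Lcn3 5 and Lcn4 10, while Obp1a ranked 148, Obp1b 155 and Lcn11 195.

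**Figure D2:**
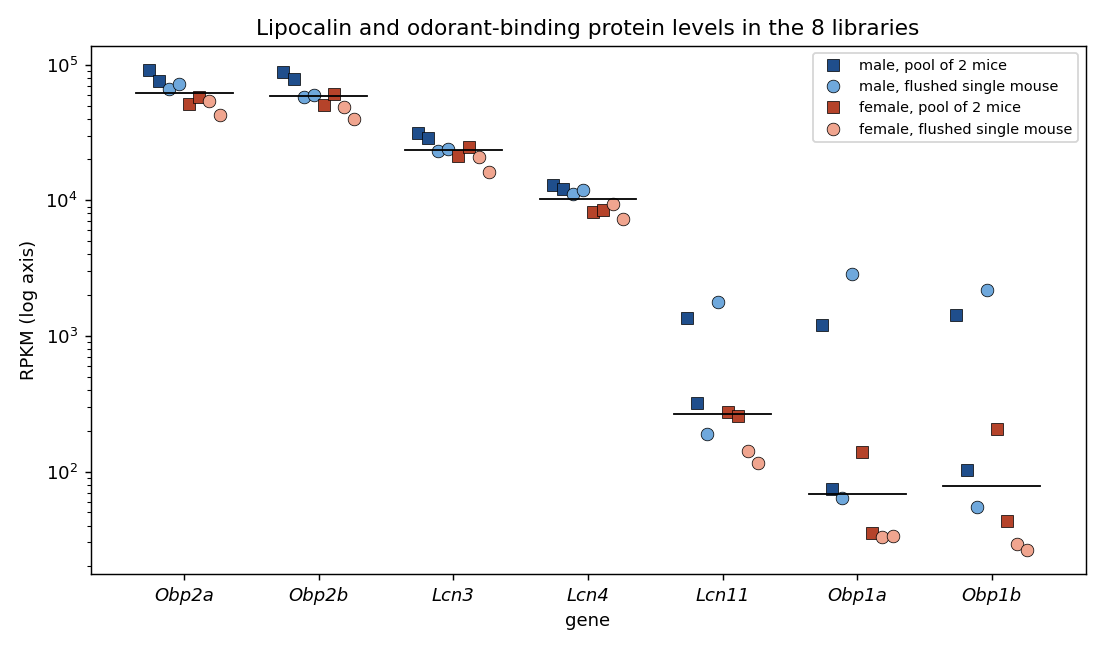
RPKM on a log axis (vertical) for the 7 genes (horizontal), 1 point per library, with squares for pools, circles for flushed single mice and a line at the median of 8. Lcn11, Obp1a and Obp1b each show 2 male points far above the rest, and their medians are 265.9, 68.7 and 78.8.

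Obp2a, an odorant-binding protein gene of the nasal glands, was measured in males at 68037 and 56691 CPM in the pools and at 49211 and 53493 CPM in the flushed mice. Female pools held 38453 and 42667 CPM and flushed females 39935 and 31843 CPM. The lowest male library lay above the highest female library, as for 0.932% of the 20601 genes tested, which is the share with all 4 males above all 4 females. The log2 difference, male minus female, was 0.57 (SE 0.081) with an edgeR quasi-likelihood adjusted p of 0.0301.

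Lcn4, a vomeronasal secretory protein gene, was measured at 10087 and 9402 CPM in male pools and at 8662 and 9285 CPM in flushed males. Female levels were 6375 and 6596 CPM in the pools and 7215 and 5661 CPM in the flushed mice. Here too the sexes were separate, and the log2 difference was 0.53 (SE 0.074, edgeR adjusted p = 0.0276).

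Obp2b, whose upstream stretch is nearly that of Obp2a, was measured at 64896 and 57070 CPM in male pools and at 42435 and 43609 CPM in flushed males. The female pools held 36708 and 44315 CPM and the flushed females 35587 and 29054 CPM. Female pool 2 lay above both flushed males, so the sexes overlapped, and the log2 difference of 0.50 (SE 0.081) gave an edgeR adjusted p of 0.0649.

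Lcn3, the other vomeronasal secretory protein gene, was measured at 21605 and 19789 CPM in male pools and at 15686 and 16341 CPM in flushed males. In females it was 14607 and 16869 CPM in the pools and 14204 and 10976 CPM in the flushed mice. The sexes overlapped, and the log2 difference of 0.37 (SE 0.079) had an edgeR adjusted p of 0.249.

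**Figure D3:**
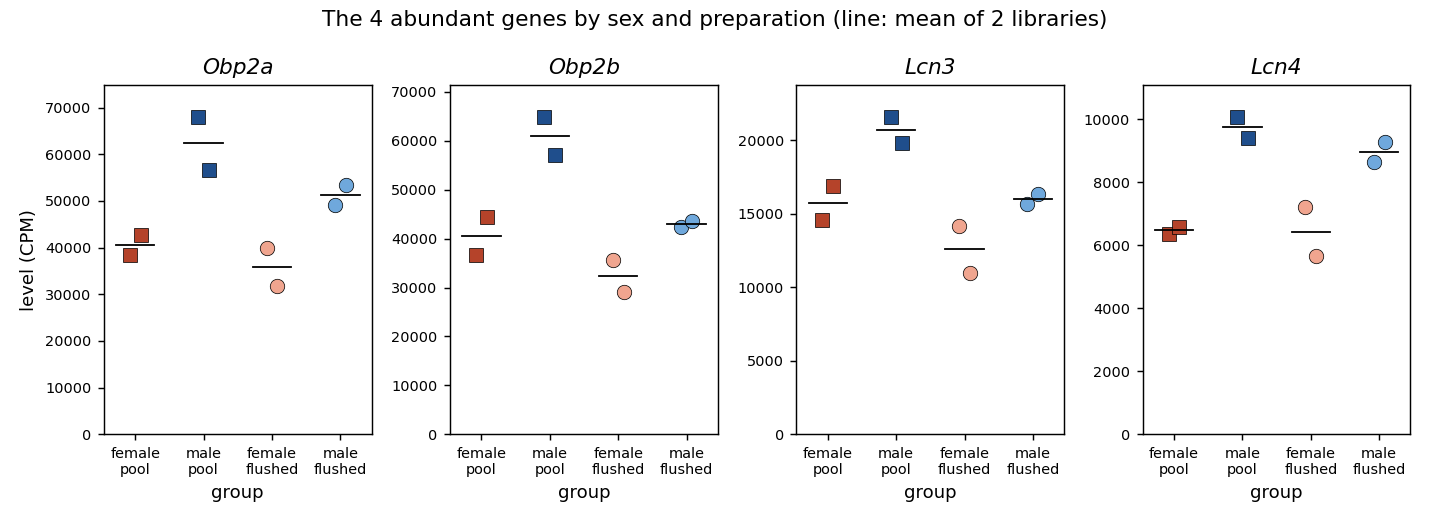
Level in CPM (vertical axes, from 0) of Obp2a, Obp2b, Lcn3 and Lcn4 in the 4 groups (horizontal axes), with 1 point per library and a line at the mean of 2. Male points lie above female points of the same preparation in all 4 panels; over both preparations the sexes are separate for Obp2a and Lcn4.

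Over the whole set, 2 of 7 genes (Obp2a and Lcn4) rose in males and none fell, where 0.116% of the 20601 genes passed in either direction and 0.0825% as higher in males. The median log2 difference was 0.57 over the 7 genes and -0.003 over all genes tested. DESeq2 called 4 of the 7 higher in males, adding Obp2b and Lcn3, where it called 0.437% of all genes higher, and limma-voom called Lcn4 alone, where it called 0.0728% higher. The male excess was present within each preparation for each of these 4 genes: within pools the log2 difference of means was 0.62 for Obp2a, 0.59 for Obp2b, 0.40 for Lcn3 and 0.59 for Lcn4, and within flushed mice 0.53, 0.42, 0.36 and 0.49.

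The calls for sex depended on which libraries and genes were kept. Without X- and Y-linked genes other than the 7, the edgeR adjusted p was 0.0796 for both Obp2a and Lcn4. Over all genes, 3 of 19936 then passed, against 24 of 20601 in the main fit. In edgeR, Lcn4 missed the threshold in 6 of 8 fits that left out 1 library (either male pool, either female pool, flushed female 3 or flushed male 3), with an adjusted p of at most 0.118. Obp2a missed it in 5 of 8 (male pool 1, either female pool, flushed female 3 or flushed male 3), at most 0.123, and Obp2b passed without flushed female 2 (adjusted p = 0.0251). The log2 difference stayed between 0.48 and 0.62 for Lcn4 and between 0.50 and 0.65 for Obp2a in those fits.

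Genes of gland cells gave a background for this comparison. Of 17 gland cell genes tested, Cldn10, which encodes a tight junction claudin, rose in males (log2 difference 0.52, edgeR adjusted p = 0.0194) and none fell. DESeq2 called 4 of the 17 and 124 of all 20601 genes. An unadjusted edgeR p under 0.05 was found for 10 of the 17 and for 1640 of all genes. The list's median log2 difference was 0.20, against -0.003 over all genes. The level of Cldn10 was 70.6 and 68.9 CPM in male pools and 60.2 and 70.5 CPM in flushed males, against 46.4 and 49.2 CPM in female pools and 49.96 and 42.9 CPM in flushed females. The summed level of the 17 genes was 2120 to 2299 CPM in males and 1937 to 2115 CPM in females. It too was higher in each male library, though by little between flushed male 1 (2120 CPM) and flushed female 3 (2115 CPM). Slc12a2, the most abundant of the 17, held 462.5 to 722 CPM in males and 419.8 to 661.8 CPM in females, so that gene overlapped between the sexes. The part of the list in the difference of Obp2a and Lcn4 was not tested. Ciliated cell genes summed to 451 to 634 CPM in males and 493 to 939 CPM in females, and vomeronasal neuron genes to 1283 to 1541 and 1300 to 1635 CPM. The 7 red cell genes summed to 599.0 and 620.5 CPM in flushed males against 114.3 and 105.4 CPM in flushed females, and to 1869 and 2053 CPM in male pools against 1646 and 1683 CPM in female pools. Their median log2 difference for sex was 1.35; none of the 7 passed in edgeR (7 at an unadjusted p under 0.05), DESeq2 called 2 and limma-voom none, and 5 passed for the interaction in edgeR. Their part in the difference of Obp2a and Lcn4 was likewise not tested.

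None of 12 genes of the secretory machinery passed for sex in edgeR (6 at an unadjusted p under 0.05, 1 in DESeq2), with a median log2 difference of 0.12. None of 25 genes of other gland secretions passed (5 at an unadjusted p under 0.05, 1 in DESeq2), with a median of -0.28, nor any of 6 genes of lipocalin uptake receptors such as megalin (0 at an unadjusted p under 0.05, 0 in DESeq2). Limma-voom called none of these. For sex, 1640 of all 20601 genes had an unadjusted edgeR p under 0.05, and DESeq2 called 124. Dmbt1, the most abundant gene of other gland secretions, held 46790 to 63740 CPM in males and 41430 to 45460 CPM in females. All males thus lay above all females, as for 0.932% of the 20601 genes. Its log2 difference was 0.32 (SE 0.0795, edgeR adjusted p = 0.331), against the list's median of -0.28.

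The interaction of sex and preparation passed for none of the 7 genes in edgeR, DESeq2 or limma-voom, and none had an unadjusted edgeR p under 0.05. Over all genes, 0.0485% passed in edgeR, 0.136% in DESeq2 and 0.034% in limma-voom.

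Between preparations, Obp2b, Lcn3 and Obp2a were lower in flushed single mice than in pools. Obp2b fell by 0.41 on the log2 scale (SE 0.081, edgeR adjusted p = 0.00231), from a mean of 50747 ± 12631 CPM in pools to 37671 ± 6746 CPM in flushed mice (SD, n = 4 each). Lcn3 fell by 0.35 (SE 0.079, edgeR adjusted p = 0.00547) and Obp2a by 0.23 (SE 0.080, edgeR adjusted p = 0.04). Lcn4 had a log2 difference of -0.06 (SE 0.074, edgeR adjusted p = 0.499), and none of the 7 genes had separate ranges in the 2 preparations, where 41.7% of the 20601 genes did.

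This comparison changed much of the transcriptome: 45.5% of the 20601 genes passed in edgeR and 22.9% as lower in flushed mice, so 3 of 7 lower is read against that. The median log2 difference was -0.35 over the 7 genes and -0.02 over all genes. Obp2a missed the threshold in 5 of the 8 fits that left out 1 library (male pool 1, female pool 2, flushed female 3 or either flushed male), with an adjusted p of at most 0.145. It also missed with limma-voom (adjusted p = 0.0572) and with library sizes computed without the 7 genes (edgeR adjusted p = 0.0511). Red cell genes, summing to 1646 to 2053 CPM in pools and 105 to 621 CPM in flushed mice, moved with preparation, as did gland cell genes, of which 4 rose and 8 fell, and their part in the result was not tested.

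Among 12 genes of the secretory machinery, 6 fell and none rose in flushed mice in edgeR. Creb3l1, a transcription factor of secretory cells, fell by 0.75 on the log2 scale (adjusted p = 0.000254), Pdia4, a chaperone of disulfide bond formation, by 0.35 (0.00182) and Sec61b, a subunit of the translocon, by 0.34 (0.00232). Of 25 tested genes of other gland secretions, 5 fell and 1 rose, a share no higher than the 22.9% of all genes that fell and the 45.5% that changed. Pigr, the carrier of immunoglobulin A into secretions, fell by 0.57 (adjusted p = 0.00152) and Bpifb1, a BPI fold protein, by 1.52 (0.00298), while Bpifa1, another BPI fold protein, rose by 0.50 (0.00406).

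Of 11 other lipocalin genes tested, 4 fell and 1 rose in flushed mice in edgeR, a share near the 45.5% of all genes that changed. Lcn10 fell by 1.71 on the log2 scale (adjusted p = 0.000435), Lcn2, which binds siderophores, fell by 1.098 (0.00688), and Apod, the apolipoprotein D gene, rose by 0.24 (0.0124). None of the 11 passed for sex in edgeR, DESeq2 or limma-voom. For sex, 3 of the 11 had an unadjusted edgeR p under 0.05, as had 1640 of all 20601 genes. None of 6 genes of lipocalin uptake passed for preparation (0 at an unadjusted p under 0.05, 0 in DESeq2, 0 in limma-voom).

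The relative level of close pairs also differed by preparation; these pairs were chosen after their values were seen and carry no test. Obp2a over Obp2b was 1.05, 0.993, 1.05 and 0.963 in the pools and 1.12, 1.096, 1.16 and 1.23 in the flushed mice. Obp1a over Obp1b was 0.797, 0.681, 0.644 and 0.768 in the pools and 1.08, 1.21, 1.11 and 1.24 in the flushed mice. Neither ratio overlapped between preparations. The levels of 41.7% of the 20601 genes tested did not overlap either, and no such share was computed for ratios of genes. The second ratio lay between 0.644 and 1.24 over all libraries, while the level of Obp1a itself varied 87.1-fold.

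**Figure D4:**
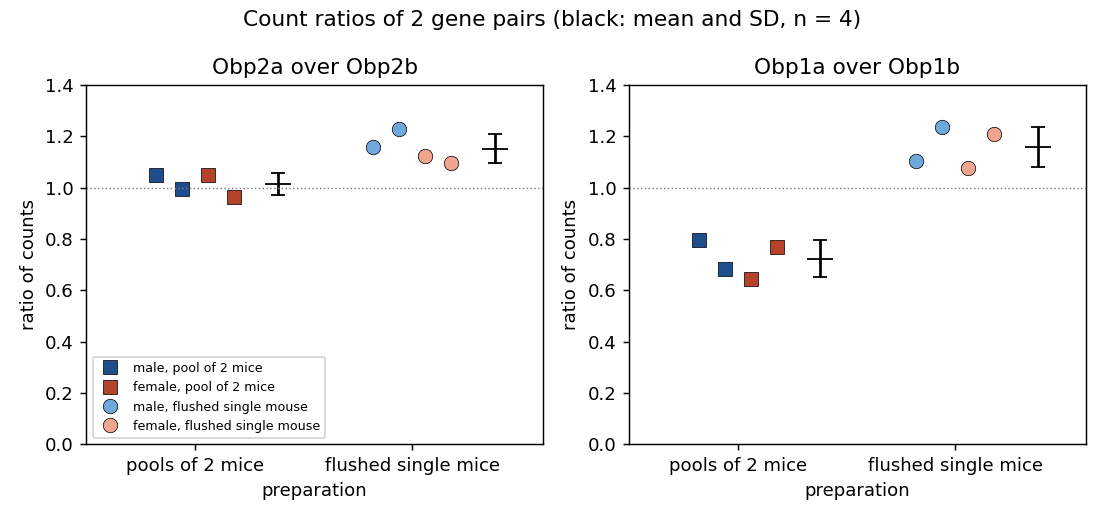
Ratio of counts (vertical axes) of Obp2a over Obp2b and of Obp1a over Obp1b in pools and flushed single mice (horizontal axes), 1 point per library, with black marks for the mean and SD of 4. Pools lie at 0.963 to 1.05 and 0.644 to 0.797, flushed mice at 1.096 to 1.23 and 1.08 to 1.24.

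How reads shared by similar genes were counted could bear on these ratios, since the authors split multi-mapping reads between their places, but this was not tested. Of the 100-base windows of the Obp2a transcript, the length of 1 read, 4.81% occurred unchanged in Obp2b. For Obp1b, 57.3% of windows occurred in Gm14743, so reads lying within those windows cannot be assigned to Obp1b alone. How much of its count they make up was not tested. Lcn3, Lcn4, Lcn11 and Obp1a shared no such window with another annotated gene. Counts of Lcn4 and Lcn11 were still fractional in 8 libraries, of Lcn3 in 7 and of Obp1a in 6, so the windows do not capture all multi-mapping.

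Lcn11, Obp1a and Obp1b varied between libraries of the same group far more than the abundant set. Obp1a was measured at 906.1 CPM in male pool 1, 55.96 in male pool 2, 48.1 in flushed male 1 and 2166 in flushed male 3. In females it was 104.9 and 26.5 CPM in the pools and 24.9 and 25.4 CPM in the flushed mice. Thus 2 of the 4 male libraries were high, 1 from each preparation, and the other males lay below female pool 1.

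Obp1b was measured at 1137 CPM in male pool 1, 82.1 in male pool 2, 43.5 in flushed male 1 and 1751 in flushed male 3. In females it was 162.9 and 34.5 CPM in the pools and 23.1 and 21.0 CPM in the flushed mice. The same 2 male libraries were high, and female pool 1 was again the highest female.

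Lcn11, the gene next to the abundant Lcn3 on chromosome 2, was measured at 880.3 CPM in male pool 1, 207.2 in male pool 2, 122.9 in flushed male 1 and 1163 in flushed male 3. In females it was 178.7 and 168.1 CPM in the pools and 92.5 and 75.7 CPM in the flushed mice. Its pattern followed Obp1a and Obp1b, although it lies on another chromosome.

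None of the 3 differed between the sexes beyond this spread in edgeR. The log2 difference, male minus female, was 4.15 for Obp1a (SE 1.23, edgeR adjusted p = 0.42), 3.96 for Obp1b (SE 1.22, 0.458) and 2.29 for Lcn11 (SE 0.640, 0.406). Each had an unadjusted p under 0.05, as had 1640 of the 20601 genes, and neither DESeq2 nor limma-voom called any of the 3. Without male pool 1 and flushed male 3, an alternative chosen after the data were seen, the differences were 0.37, 0.36 and 0.40.

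The within-group standard deviation of log2 CPM was 2.50 for Obp1a, 2.44 for Obp1b and 1.37 for Lcn11, at or above the 99.75 percentile of 17881 genes whose counts averaged at least 20. It was 0.135 to 0.163 for the 4 abundant genes, against a median of 0.131 over those genes. The highest library exceeded the lowest 87.1-fold for Obp1a, 83.6-fold for Obp1b and 15.4-fold for Lcn11, and 1.78-fold to 2.23-fold for the abundant genes.

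None of these 3 genes passed for preparation in the main fit, and the size of the difference moved with single libraries. For preparation the log2 differences, flushed minus pool, were -0.06 for Obp1a, -0.77 for Obp1b and -0.40 for Lcn11 (edgeR adjusted p between 0.609 and 0.972). Without flushed male 3, Obp1b and Lcn11 passed as lower in flushed mice (log2 difference -2.79 and -1.47, edgeR adjusted p = 0.039 and 0.0307). Obp1a changed sign in 5 of the 8 fits that left out 1 library. In those fits Obp1b ranged from -2.79 to 0.0754, and Lcn11 stayed below 0, from -1.47 to -0.09.

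Some X-linked neighbours had profiles like those of Obp1a and Obp1b. Gm14743, Gm14744, 5430402E10Rik and the pseudogene Gm14750 lie in the same stretch, from chrX:77864758 to chrX:78245921, as do the pseudogenes Gm14753, at 0.128 CPM or less, and Gm16458, listed at 0 in all libraries. Gm14744 was measured at 2409 CPM in male pool 1 and 3241 in flushed male 3, while the other 6 libraries lay between 28.2 and 263.8 CPM. Gm14743 was at 604.2 and 870.3 CPM in those 2 libraries and between 12.6 and 104.5 CPM in the others, and 5430402E10Rik at 935.6 and 1123 CPM against 17.3 to 177.1 CPM. Neither these 3 nor Gm14750 passed for sex in edgeR (adjusted p between 0.427 and 0.486). Their transcripts held 100-base windows found unchanged in another annotated gene, 60.6% of windows for Gm14743, 42.9% for Gm14744, 43.5% for 5430402E10Rik and 37.9% for Gm14750. Gm14743 shared windows only with Obp1b, so the split counts of that pair are not independent. Gm14744 and 5430402E10Rik shared windows mainly with each other and Gm14750 mainly with 5430402E10Rik, so their counts are not independent either. Obp1b shared no window with Gm14744, 5430402E10Rik or Gm14750.

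Gm5938, a coding gene between Obp1a and Obp1b, was much weaker than both. Its RPKM was 0.158 to 7.64 over the 8 libraries, with the highest value again in flushed male 3, and Obp1a exceeded it 62.6-fold to 375-fold per length. The 250 bases upstream of Obp1a (chrX:78091375-78091624, minus strand) and Gm5938 (chrX:78125217-78125466, plus strand) are shown because they were alike at 231 positions while the levels were far apart; capitals mark the 19 that differ.
Obp1a: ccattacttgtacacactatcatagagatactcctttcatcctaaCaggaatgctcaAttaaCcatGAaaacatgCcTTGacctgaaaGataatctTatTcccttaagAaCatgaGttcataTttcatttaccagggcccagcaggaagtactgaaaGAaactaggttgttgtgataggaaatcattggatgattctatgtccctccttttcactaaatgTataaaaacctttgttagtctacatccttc
Gm5938: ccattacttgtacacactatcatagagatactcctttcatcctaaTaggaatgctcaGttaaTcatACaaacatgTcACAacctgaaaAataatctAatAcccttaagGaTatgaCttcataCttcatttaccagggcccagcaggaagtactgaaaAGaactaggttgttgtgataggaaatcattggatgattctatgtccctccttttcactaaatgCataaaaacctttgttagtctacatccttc

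Counted from 1 at the 5′ end of the stretch, with the Obp1a base first, T221C was the change nearest the start site. It lay 30 bases before the start and within the TATAAA of Obp1a, which the Gm5938 stretch therefore lacks. This is a description of the letters, and no measurement here bears on their use. The transcripts of the pair were 84.7% identical over their alignment.

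Obp1b and Gm14743 were closer still. Their upstream stretches matched at 210 of 210 aligned positions and their transcripts at 94.1%, while Obp1a and Obp1b matched at 71.0% of transcript positions. The stretch of Obp1b (chrX:78186558-78186776, plus strand) is shown beside that of Lcn11 (chr2:25776767-25777016, plus strand), whose level varied with it; capitals mark TATAAA.
Obp1b: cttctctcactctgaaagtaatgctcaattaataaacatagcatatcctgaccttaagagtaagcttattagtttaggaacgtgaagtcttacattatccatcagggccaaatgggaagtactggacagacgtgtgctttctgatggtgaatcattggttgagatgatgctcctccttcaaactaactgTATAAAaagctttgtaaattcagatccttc
Lcn11: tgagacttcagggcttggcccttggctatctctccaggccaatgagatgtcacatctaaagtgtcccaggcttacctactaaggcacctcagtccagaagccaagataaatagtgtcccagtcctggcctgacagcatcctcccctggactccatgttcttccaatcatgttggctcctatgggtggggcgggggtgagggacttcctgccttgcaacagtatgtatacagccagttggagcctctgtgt

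**Figure D5:**
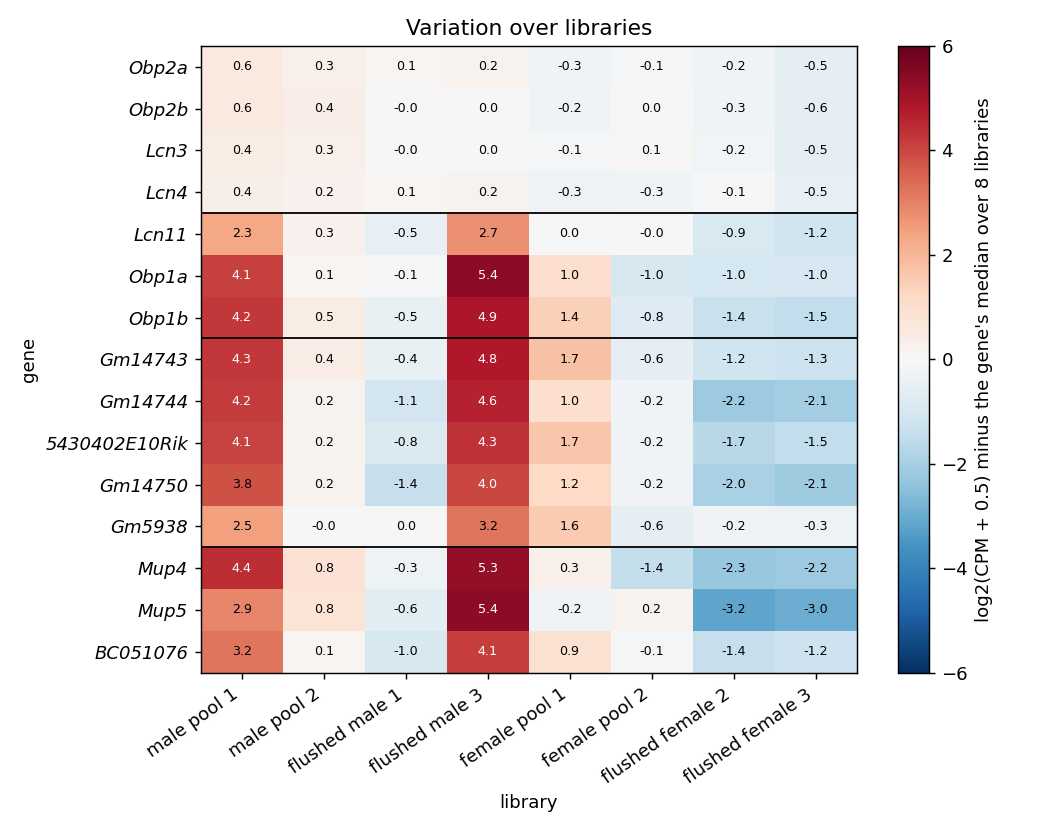
Difference of log2(CPM + 0.5) from each gene's median over the 8 libraries (colour and printed values) for the 7 genes, the X-linked neighbours, Mup4, Mup5 and BC051076 (rows) in the 8 libraries (columns). Male pool 1 and flushed male 3 hold the 2 highest values of each row from Lcn11 downward, with 4.11 and 5.37 for Obp1a. The upper 4 rows stay between -0.57 and 0.59.

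Across genes, the likeness of profiles over the 8 libraries was higher within the sets than across them, by less for Lcn4. Pearson's r of log2 CPM was 0.988 for Obp1a with Obp1b, 0.973 for Lcn11 with Obp1b and 0.964 for Lcn11 with Obp1a. It was 0.986 for Lcn3 with Obp2b, 0.962 for Obp2a with Lcn4 and 0.95 for Obp2a with Obp2b, but 0.828 for Lcn3 with Lcn4 and 0.848 for Lcn4 with Obp2b, and between 0.488 and 0.767 for pairs across the sets. These values describe 8 libraries in 4 groups that share sex, preparation and depth, and carry no p-value.

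The gene most like the mean profile of the 7, among 11695 whose mean log2 CPM was at least 3, was Mup4 (r = 0.994), a major urinary protein gene expressed in nasal tissue. That mean used centred log2 values that were not scaled, so it was set mainly by Obp1a, Obp1b and Lcn11, which varied most. Mup4 was among the 3 nearest to Obp1a and to Lcn11, and to none of the abundant genes. Mup4 was measured at 949.2 CPM in male pool 1, 1698 in flushed male 3, 78.0 in male pool 2, 35.1 in flushed male 1, while females held 8.68 to 53.3 CPM. Next came Gm14744 (0.981), Gm14743 (0.980), Syvn1 (0.979), a ubiquitin ligase gene of the endoplasmic reticulum, BC051076 (0.973), Gm14750 (0.971), 5430402E10Rik (0.970), Farp1 (0.965), Pfkfb3 (0.957) and Ubn1 (0.9504).

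Of 22 major urinary protein genes, Mup4 and Mup5 passed the filter on low counts. Neither passed for sex in edgeR (2 at an unadjusted p under 0.05), DESeq2 called both, and limma-voom called neither. Over all 20601 genes, 1640 had an unadjusted edgeR p under 0.05 for sex and DESeq2 called 124. The list's summed level was 1049 CPM in male pool 1 and 2236 in flushed male 3, and the remaining 6 libraries held 9.74 to 100.8 CPM.

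The abundant genes had other nearest profiles. Cldn10 (r = 0.984), Slc25a15 (0.963), a mitochondrial ornithine carrier, and Homer2 (0.961), a scaffold protein, were nearest to Lcn4. Lpcat3, a phospholipid-remodelling acyltransferase, was among the 3 nearest to Obp2a (0.976), Obp2b (0.980) and Lcn3 (0.980). Slc25a15 (0.954) and Sel1l3 (0.953) followed for Obp2a, Fcgbp (0.976) and Surf4 (0.974), a cargo receptor of the secretory pathway, for Obp2b, and Sntb1 (0.982) and H13 (0.978), the signal peptide peptidase, for Lcn3.

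Marker lists were read beside the 2 high libraries. Main olfactory neuron genes summed to 187.3 CPM in male pool 1 and 150.3 in flushed male 3, against 161.7 to 200.7 CPM in the other libraries, and ciliated cell genes to 633.8 and 543.9 CPM against 450.7 to 939.4 CPM. Gland cell genes summed to 2272 and 2299 CPM, the 2 highest values, against 1937 to 2225 CPM in the others. Other gland secretions summed to 78620 and 65656 CPM against 53654 to 65684 CPM. Most of that sum was Dmbt1 alone, at 63740 and 53160 CPM against 41430 to 51350 CPM. The part of these lists in the high levels of Obp1a, Obp1b and Lcn11 was not tested.

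Neighbours on chromosome 2 showed how far expression changed over short distances. Within 200 kb of Lcn3, Lcn5, Lcn6 and Lcn8 had a mean RPKM of 0.00596, 0.0135 and 0.0104, and Lcn9 was listed at 0 in all libraries. Lcn10 had 2.37 and Bmyc, a Myc-related gene between Obp2a and Obp2b, 7.27, in the same unit, against 63899 for Obp2a and 60395 for Obp2b on either side. Glt6d1, 13580 bases beyond Lcn11, was listed at 0 in all libraries. Other genes nearby included Rabl6, a small GTPase relative (10.4 mean RPKM), and Camsap1, a microtubule minus-end protein (6.84). The genes flanking Lcn4 within that distance, among them Notch1 (5.68), Egfl7 (9.98) and Agpat2 (4.07), likewise lay far below its mean RPKM of 10220.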

How the data were processed

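RNA-seq of vomeronasal epithelium gave 1 deposited count table per library. The authors' expected counts are fractional, per the file headers: featureCounts counted reversely stranded reads over exons, gave each multi-mapping read to its places as equal fractions and left out reads overlapping more than 1 gene. STAR 2.7.1a, featureCounts 1.6.5 and GRCm38 are named per the submitters' processing notes. The exon Length column (another unit, in bases) was taken as deposited for RPKM.

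Gene identifiers were matched to GENCODE M21 (48336 of 48831 genes). Counts were rounded and filtered with filterByExpr, leaving 20601 genes, and tested for sex and preparation together with edgeR 4.0.16 (TMM, quasi-likelihood F test, Benjamini-Hochberg adjusted p under 0.05), in R 4.3.3. DESeq2 1.42.0 and limma-voom (limma 3.58.1) were alternatives, with other scalings, filters and libraries left out. CPM used TMM-scaled sizes, and log2 values of the heat map a pseudocount of 0.5. Shares used all counts, with exact 95% binomial intervals and exact permutation tests. Total counts were 18763557 to 24965088 per library. The procedure was tested on simulated data drawn with a single setting of spread for all genes. That test does not cover genes that vary as Obp1a, Obp1b and Lcn11 did.

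The genes and lists were chosen with earlier results of these data known. Text names the genes of the rule, list genes past the threshold for sex, the 3 with the smallest p per list for preparation, the 10 profiles most like the mean and the 3 most like each gene, and neighbours within 200 kb; Mup5, Gm14750, Gm14753, Gm16458 and the ratio pairs were added after their values were seen.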

Additional observations from a re-analysis of the deposited data

Results flagged for a closer look

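Of 28 combinations of a gene and an arm of 4 libraries (males, females, pools, flushed mice), 8 held a library whose gap to the nearest other exceeded the 95% critical value of Dixon's test for 4 samples. Chance gives about 1 in 20 such results, and the 8 come from 3 genes in shared libraries, so they are not independent. Among pools, male pool 1 stood apart for Lcn11 (880.3 CPM, next 207.2), Obp1b (1137 CPM, next 162.9) and Obp1a (906.1 CPM, next 104.9). Among flushed mice, flushed male 3 stood apart for Lcn11 (1163 CPM, next 122.9), Obp1b (1751 CPM, next 43.5) and Obp1a (2166 CPM, next 48.1). Among females, pool 1 stood apart for Obp1b (162.9 CPM, next 34.5) and Obp1a (104.9 CPM, next 26.5). No cause was tested.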

How the results depend on the processing

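Male and female pools carry the same mouse numbers in their titles and both flushed sexes have a number 3, but these name different mice. Deviations from the group means correlated at 0.203 over 20601 genes in both pool pairs and at 0.018 in the flushed pair. With 2 libraries per group the deviations are equal and opposite, so both pool pairs give the same value by construction. These values cannot settle whether the samples share more than a number. With the number as a replicate block, an alternative added after the data were seen, 1 gene was called for sex (11 genes over all) and 2 for the interaction (92 over all). For preparation, no paired analysis was possible because no number ties a pool to a flushed mouse.

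For sex, 2 genes were called. The fit with no filter on low counts called 7, but also 784 of 32514 genes against 24 with the filter, with p-values of 0 for Obp1a and Obp1b, so its counts are in doubt. The count was 4 with DESeq2, 1 with limma-voom, and 0 without male pool 1 and flushed male 3, without other X- and Y-linked genes, and with sex alone in the model; it ranged from 0 to 3 with 1 library left out. For preparation, 3 genes were called, 5 with no filter (9938 over all genes), 2 with limma-voom, 2 with library sizes without the 7 genes and 0 with preparation alone, and 2 to 4 with 1 library left out. The interaction count of 0 became 3 with no filter (263 over all genes, against 10) and stayed 0 with 1 library left out. Reversed signs were limited to preparation: with preparation alone, 0.0199 for Lcn11, 1.05 for Obp1a and 0.38 for Obp1b. With 1 library left out, the range was -2.12 to 0.69 for Obp1a and -2.79 to 0.0754 for Obp1b. Of the single-gene refits, 185 kept sign and call, 30 lost a call, 14 gained one and 9 reversed. The share difference between sexes ranged from 2.73 to 3.82 percentage points and that between preparations from -2.32 to -0.60 with 1 library left out. The cause of these changes was not tested, and some refits also held fewer libraries or genes. Fits leaving out 1 library have an arm of 1 library in a group, assumed to vary like the others. Depth limits none of the 7 genes, whose lowest count was 518.5.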
